A study of Mus musculus with 18 samples.

Results

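Of 25926 genes in the expression table of 18 samples of mouse bone marrow-derived macrophages (BMDMs), 10 are described here. They were chosen by symbol and encode accessory proteins, adaptors and kinases that act in signalling by Toll-like receptors (TLRs). These proteins do not all promote the signal. The genes are the co-receptors Cd14, Ly96, Ly86 and Cd180, the adaptors Myd88, Tirap, Ticam1 and Ticam2, and the kinases Irak2 and Irak3. BMDMs of C57BL/6J mice had been grown for 7 days with M-CSF at 50 ng/mL and then placed in the upper chamber of a Transwell plate, with renal tubular epithelial cells (TECs) of WT mice below a membrane with 0.4 μm pores. In the NC group (n = 6) the BMDMs received PBS and the TECs no crystals. In the COM group (n = 6) the BMDMs received PBS and the TECs 100 μg/mL calcium oxalate monohydrate (COM) for 24 h, whereas for COM+Met (n = 6) the TECs received the same crystals and the BMDMs 5.0 mM Met, an abbreviation that the labels leave unexplained, for 24 h. All BMDMs shared the coculture with TECs, so that no group shows the macrophages alone, and RNA was taken from BMDMs, which are named as the cell type in every label.

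TLRs detect microbial products and molecules from damaged cells. CD14 hands lipopolysaccharide to the complex of TLR4 and MD-2, the product of Ly96, while MD-1, the product of Ly86, is the partner that RP105, the product of Cd180, needs to reach the cell surface. Signals from most TLRs run through MyD88, with TIRAP as the bridging adaptor at TLR2 and TLR4, to kinases of the IRAK family, and signals from TLR3 and from internalised TLR4 run through TRIF, the product of Ticam1, with TRAM, the product of Ticam2, as its bridge at TLR4. IRAK2 carries the signal of MyD88 on, and IRAK-M, the product of Irak3, is known in macrophages as a brake on it.

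The values are FPKM, mapped fragments scaled to gene length and to the library's total, so that the levels of different genes can be set side by side per length. The read depth behind them is unknown. Changes are differences of mean log2(FPKM + 1), with the standard error (SE) and the adjusted p of limma with Benjamini-Hochberg adjustment over all genes tested. A gene passed at an adjusted p below 0.05 and was called when it also changed at least 2-fold on that scale. All 10 members passed the filter of a mean of 1 FPKM in every comparison, each with at least 0.755 FPKM in every sample. The 3 comparisons share groups: COM and COM+Met were each set against the same NC samples, and the COM samples served in both comparisons with them. Since no source states if samples within a group were separate cultures or mice, p-values cover only how far these libraries differed from each other, which may be technical.

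Some libraries stood apart from others of their own group. Over 10751 genes, log2 values of COM-1 to COM-3 correlated with those of COM-4 to COM-6 at 0.888 to 0.951 and those of NC-1 to NC-4 with NC-5 and NC-6 at 0.938 to 0.962, against 0.989 to 0.995 among the COM+Met libraries. COM-4 to COM-6 were themselves less alike (0.930 to 0.995) than COM-1 to COM-3 (0.992 to 0.994). For members such as Cd14, Cd180, Irak2, Irak3 and Myd88, COM-6 stood apart from COM-4 and COM-5. Many results whose call or size rests on these libraries are given with and without them, but not all. All 7 macrophage markers, among them Adgre1, Csf1r and Lyz2, averaged 1 FPKM or more in each group. Summed FPKM of 10 neutrophil genes ranged from 535 to 1017 in NC, 170 to 552 in COM and 74.0 to 137 in COM+Met, being 517 to 552 in COM-1 to COM-3 and 170 to 231 in COM-4 to COM-6. Of 7 dendritic cell markers, Ccr7 made up most of a sum of 18.3 to 27.2 FPKM among NC-1 to NC-4, 2.51 to 3.96 in NC-5 and NC-6, 206 to 225 in COM-1 to COM-3, 63.9 to 67.9 in COM-4 to COM-6 and 38.7 to 76.2 in COM+Met; 2, 4 and 1 of them reached a mean of 1 FPKM in NC, COM and COM+Met. The sum of 12 tubular epithelial markers, mainly Cdh1, was 10.9 to 18.2 in NC, 0.468 to 1.37 in COM and 0.0575 to 0.332 in COM+Met, and 2, 5 and 7 of the 12 were at 0 in all samples of these groups. The part of such RNA in the results below was not tested. In bulk RNA, fewer cells of a type and less RNA per cell cannot be told apart.

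In COM against NC, 5 of 10 members were higher, namely Cd14, Irak3, Ly96, Ticam2 and Irak2, beside 12.7% of 10900 genes tested. No member was lower, beside 40.6% of all genes. Cd14 and Irak3 were called at 2-fold, beside 17.7% of all genes, and the groups of 6 did not overlap for Cd14, Ticam2 and Irak3, beside 38.2%. The median change of the 10 members was 0.57, against -0.27 for all genes, a median which moved to 0.0048 once libraries were scaled by size factors. Without NC-5 and NC-6, 3 members passed in place of 5, with Cd14 alone called. Among all genes, 1699 were then called in place of 1926, and the share that passed was not taken.

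**Figure D1:**
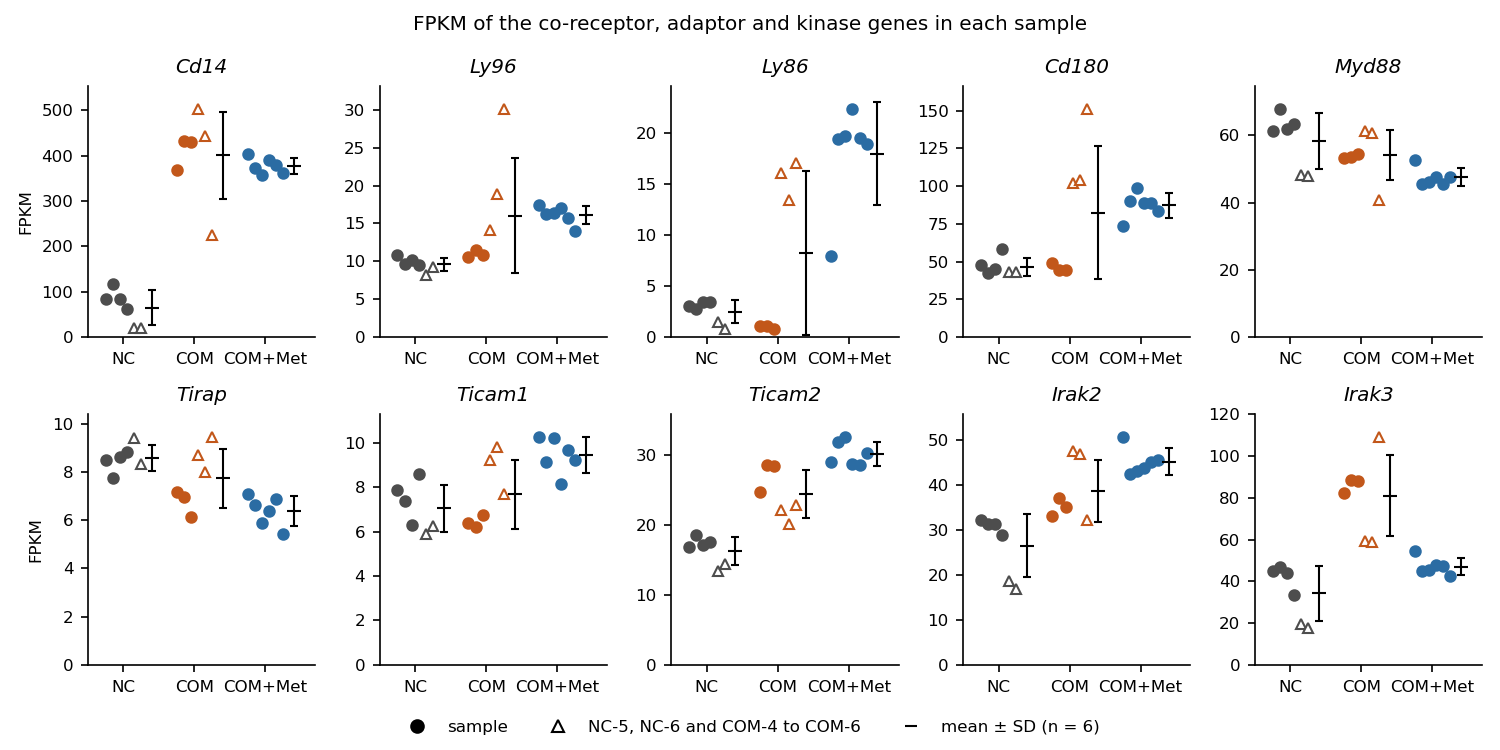
FPKM of each member in every sample, 1 panel per gene, with the 3 groups along the x axis and a linear y axis that starts at 0. Points are single samples, with open triangles for NC-5, NC-6 and COM-4 to COM-6, and bars give the mean and SD of 6 samples; Cd14 rose from a mean of 64.7 in NC to 400.5 in COM, and the COM samples of Ly86 fell into 3 near 1 FPKM and 3 between 13.5 and 17.1.

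Cd14 (chromosome 18, 36725067 to 36726798, minus strand; positions here and below are from GENCODE M21 on GRCm38) was the most abundant member in COM and COM+Met. NC samples held 85.2, 116, 84.6, 62.2, 19.7 and 20.0 FPKM, COM samples 369, 433, 430.1, 503, 443 and 226, and COM+Met samples 403, 372, 358, 390.5, 379.7 and 362. Every COM and COM+Met sample lay above every NC sample, while NC-5 and NC-6 lay far below the other NC samples and COM-6 below the other COM samples. The change in COM was 2.86 on the log2 scale (SE 0.43, limma adjusted p = 0.000141, n = 6 per group) with a 95% interval of 1.94 to 3.78. It was 2.18 (adjusted p = 3.88e-05) without NC-5 and NC-6. COM+Met lay close to COM, at -0.044 (SE 0.16, limma adjusted p = 0.890, 95% interval -0.40 to 0.31), and was 2.82 above NC (SE 0.40, adjusted p = 2.98e-05). Without NC-5 and NC-6 it was 2.14 above NC (limma adjusted p = 6.34e-09).

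Ly96 (chromosome 1, 16688051 to 16709611, plus strand) was far less abundant than Cd14. In NC it ranged from 8.16 to 10.8 FPKM with a median of 9.55, in COM from 10.5 to 30.1 with a median of 12.8, and in COM+Met from 14.0 to 17.4 with a median of 16.3. COM-1 to COM-3 (10.5, 11.5 and 10.8) lay within or just above the range of NC, and COM-4 to COM-6 (14.2, 18.9 and 30.1) above it. The rise in COM was 0.59 (SE 0.22, limma adjusted p = 0.0350), and it did not pass with COM-1 to COM-3 alone (0.18, adjusted p = 0.0878) or without NC-5 and NC-6 (0.53, adjusted p = 0.12). COM+Met rose over NC by 0.69 (SE 0.066, adjusted p = 7.16e-07), with no overlap between the groups, and differed from COM by 0.11 (SE 0.21, adjusted p = 0.781). Against COM-1 to COM-3 the difference was 0.52 (adjusted p = 3.51e-05), and against COM-4 to COM-6 it was -0.30 (adjusted p = 0.241).

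Ly86 (chromosome 13, 37345208 to 37419036, plus strand) and Cd180 (chromosome 13, 102693558 to 102739629, plus strand), whose products form 1 surface complex, both split the COM group. Ly86 stood at 1.07, 1.10 and 0.807 FPKM in COM-1 to COM-3 and at 16.1, 13.5 and 17.1 in COM-4 to COM-6. Cd180 stood at 49.0, 44.7 and 44.5 in the first of these sets and at 102, 104 and 151 in the other. In NC, Ly86 ranged from 0.755 to 3.50 with a median of 2.92 and Cd180 from 42.4 to 58.2 with a median of 44.1, so that COM-4 to COM-6 lay above all NC samples for both genes. In COM+Met, Ly86 ranged from 7.94 to 22.4 with a median of 19.4 and Cd180 from 73.6 to 98.6 with a median of 88.8, which is above every NC sample. The promoter windows of these genes, 250 bases before to 50 after a RefSeq transcription start on GRCm38.p6, are shown because these members divided the COM libraries. No base is in capitals because none of the 5 motifs searched, which are given with the Myd88 window, was found in them. The windows are chr13:37345095-37345394 and chr13:102693308-102693607, both on the plus strand, with a GC content of 50.3% and 43.7%.
Ly86: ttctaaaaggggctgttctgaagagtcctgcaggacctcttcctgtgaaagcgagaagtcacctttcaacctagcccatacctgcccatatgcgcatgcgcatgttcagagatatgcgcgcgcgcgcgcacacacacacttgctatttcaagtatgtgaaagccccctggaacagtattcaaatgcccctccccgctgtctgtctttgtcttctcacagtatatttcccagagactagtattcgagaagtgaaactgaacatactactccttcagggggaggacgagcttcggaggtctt
Cd180: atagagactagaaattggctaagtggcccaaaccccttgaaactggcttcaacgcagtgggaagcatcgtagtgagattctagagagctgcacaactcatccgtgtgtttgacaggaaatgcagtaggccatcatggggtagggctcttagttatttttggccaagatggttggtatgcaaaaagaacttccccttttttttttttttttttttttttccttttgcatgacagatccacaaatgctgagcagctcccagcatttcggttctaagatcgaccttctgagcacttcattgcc

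Neither co-receptor passed in the main fit of COM against NC with all COM libraries. Cd180, but not Ly86, passed with size factors (0.97, limma adjusted p = 0.0379) and in 1 fit of all 18 samples (0.66, limma adjusted p = 0.0274). With limma sample weights Ly86 passed as lower (-0.87, adjusted p = 0.0118), and Cd180 changed by 0.037 (adjusted p = 0.793). In the main fit, the change of Ly86 was 0.78 (SE 0.64, limma adjusted p = 0.312, 95% interval -0.59 to 2.16) and that of Cd180 was 0.66 (SE 0.29, adjusted p = 0.0705, 95% interval 0.034 to 1.28). With COM-4 to COM-6 alone the changes of Ly86 and Cd180 were 2.31 (adjusted p = 0.000123) and 1.32 (adjusted p = 7.45e-05), and with COM-1 to COM-3 alone -0.74 (adjusted p = 0.0583) and -0.0094 (adjusted p = 0.942). Ly86 differed by 1.67 between COM+Met and COM (SE 0.64, limma adjusted p = 0.102), the largest difference in size among the members in that comparison, by 3.19 against COM-1 to COM-3 and by 0.14 (adjusted p = 0.710) against COM-4 to COM-6. Cd180 differed by 0.24 (SE 0.28, adjusted p = 0.620), with 0.90 and -0.43 (adjusted p = 0.0507) against the same sets. Against NC, COM+Met was higher by 2.45 for Ly86 (SE 0.28, adjusted p = 3.37e-06) and 0.89 for Cd180 (SE 0.085, adjusted p = 6.55e-07). B cells also carry RP105, and the summed level of 7 B-cell markers, of which Cd22 alone reached 1 FPKM, was 3.32 to 4.56 FPKM in COM-1 to COM-3 and 3.69 to 4.26 in COM-4 to COM-6. Unlike these, the dendritic cell list divided the same libraries, at 206 to 225 FPKM and 63.9 to 67.9, as did the neutrophil list, and within COM both lists were lower in the libraries where Ly86 and Cd180 were higher. Their part in this split was not tested.

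Myd88 (chromosome 9, 119335934 to 119341411, minus strand) was the most abundant adaptor. It ranged from 48.1 to 67.9 FPKM in NC (median 61.6), from 40.8 to 61.3 in COM (median 54.1) and from 45.4 to 52.7 in COM+Met (median 46.9), and the groups overlapped in all 3 comparisons. COM differed from NC by -0.11 (SE 0.13, limma adjusted p = 0.477) and COM+Met from COM by -0.17 (SE 0.10, adjusted p = 0.282). Against COM-1 to COM-3 alone the difference of COM+Met was -0.18 and passed (limma adjusted p = 0.00792). Against COM-4 to COM-6 alone it was -0.17 (adjusted p = 0.341). COM+Met fell below NC by 0.28 (SE 0.086, adjusted p = 0.00973), although with size factors the difference was 0.027 (adjusted p = 0.791), and relative to the median of all genes it was -0.021. Without NC-5 and NC-6 the difference was -0.41 (limma adjusted p = 6.12e-06). Myd88 overlaps Acaa1a on the opposite strand, which fell by 0.26 in the same comparison (adjusted p = 0.000161) from a mean of 81.1 FPKM to 67.6. The promoter window of Myd88, chr9:119339969-119340268 on the minus strand (GRCm38.p6), is shown because it alone of the member windows held matches, which are in capitals. It lies inside the gene as GENCODE annotates it, downstream of the 5′ end at 119341411. The 5 motifs, searched on both strands, were a narrow form of the NF-kappa B site, the interferon-stimulated response element (ISRE), TTCNNNGAA for STAT factors, TATAAA for the TATA box and TGACTCA for AP-1. They occurred in 4.59%, 3.44%, 8.30%, 13.6% and 5.20% of 32851 windows of the same length. The window held the ISRE form GAAAGCGAAA starting at -40 from the transcription start, TTCTCGGAA at -46, which overlaps it, and TATAAA at -160 with its reverse-strand form at -164. A match of letters is a description and not a binding site.
Myd88: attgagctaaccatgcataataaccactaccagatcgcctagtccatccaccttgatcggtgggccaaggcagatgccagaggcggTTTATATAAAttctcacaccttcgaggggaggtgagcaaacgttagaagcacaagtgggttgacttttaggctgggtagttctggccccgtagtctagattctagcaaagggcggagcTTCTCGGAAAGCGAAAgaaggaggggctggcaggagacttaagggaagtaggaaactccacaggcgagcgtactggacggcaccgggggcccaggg

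Tirap (chromosome 9, 35184551 to 35200291, minus strand) ranged from 7.76 to 9.40 FPKM in NC (median 8.56), from 6.13 to 9.46 in COM (median 7.58) and from 5.43 to 7.10 in COM+Met (median 6.49). All COM+Met samples lay below all NC samples, whereas COM overlapped both groups, with COM-1 to COM-3 (7.15, 6.98 and 6.13) below COM-4 to COM-6 (8.71, 8.01 and 9.46). COM differed from NC by -0.14 (SE 0.10, limma adjusted p = 0.255) and COM+Met from COM by -0.24 (SE 0.10, adjusted p = 0.142, two-sided exact permutation p = 0.0368). The latter was -0.073 (adjusted p = 0.440) against COM-1 to COM-3 and -0.40 (adjusted p = 0.0151) against COM-4 to COM-6, and COM-1 to COM-3 alone were below NC by 0.30 (adjusted p = 0.00572). COM+Met fell below NC by 0.38 (SE 0.063, adjusted p = 0.000117), a difference of -0.100 (adjusted p = 0.143) with size factors. The gene overlaps Srpr on the opposite strand, and whether the counting used strand is not given in the sources used here, so reads of the overlap cannot be told apart; Srpr rose in COM+Met over NC by 0.61.

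Ticam1 (chromosome 17, 56269319 to 56276786, minus strand) and Ticam2 (chromosome 18, 46557291 to 46574533, minus strand) encode the pair of adaptors of the TRIF route. Ticam1 ranged from 5.90 to 8.58 FPKM in NC (median 6.82), from 6.19 to 9.80 in COM (median 7.21) and from 8.12 to 10.3 in COM+Met (median 9.43), with overlap throughout. It differed by 0.099 between COM and NC (SE 0.13, limma adjusted p = 0.529) and by 0.28 between COM+Met and COM (SE 0.11, adjusted p = 0.116), and rose in COM+Met over NC by 0.38 (SE 0.086, adjusted p = 0.00127). Against COM-1 to COM-3 the difference of COM+Met was 0.49 (adjusted p = 9.00e-05), and against COM-4 to COM-6 it was 0.077 (adjusted p = 0.561). Ticam2 stood apart in the 3 groups, without overlap between any pair. NC samples held 16.8, 18.6, 17.1, 17.6, 13.3 and 14.4 FPKM, COM samples 24.7, 28.6, 28.4, 22.1, 20.1 and 22.9, and COM+Met samples 29.0, 31.8, 32.6, 28.8, 28.6 and 30.2. The gap between COM and COM+Met was narrow, as the highest COM sample and the lowest COM+Met sample both rounded to 28.6 FPKM. Ticam2 rose in COM by 0.55 (SE 0.11, adjusted p = 0.00143) and in COM+Met over NC by 0.85 (SE 0.075, adjusted p = 3.14e-07). The difference of 0.30 between COM+Met and COM did not pass (SE 0.095, limma adjusted p = 0.0531), although the two-sided exact permutation test of the 6 and 6 samples gave 0.00216, the smallest p it can give; it passed with limma in the fit with size factors (0.32, adjusted p = 0.0114). The difference was 0.14 (adjusted p = 0.0569) against COM-1 to COM-3 and 0.46 (adjusted p = 0.00364) against COM-4 to COM-6. Ticam2 overlaps Tmed7 on the same strand, which rose in COM by 0.30 (adjusted p = 0.0199) and differed by -0.12 between COM+Met and COM.

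Irak2 (chromosome 6, 113638467 to 113695026, plus strand) encodes a kinase of the MyD88 complex. NC samples held 32.2, 31.2, 31.3, 28.9, 18.6 and 16.8 FPKM. COM samples held 33.2, 37.1, 35.0, 47.5, 46.9 and 32.1, with a median of 36.1 and the lowest value in COM-6. COM+Met samples ranged from 42.5 to 50.8 with a median of 44.4. NC-1 to NC-4 lay close to the lowest COM samples, and NC-5 and NC-6 far below. Irak2 rose in COM by 0.55 (SE 0.18, limma adjusted p = 0.0213), but by 0.30 (adjusted p = 0.0967) without NC-5 and NC-6 and by 0.46 (adjusted p = 0.0501) without NC-5 alone. With COM-1 to COM-3 alone the rise was 0.44 and did not pass (limma adjusted p = 0.114). COM+Met rose over NC by 0.79 (SE 0.15, adjusted p = 0.000439) with no overlap, and by 0.53 (adjusted p = 1.20e-06) without NC-5 and NC-6. It differed from COM by 0.23 (SE 0.11, adjusted p = 0.182). That difference was 0.35 (adjusted p = 0.000300) against COM-1 to COM-3 and 0.11 (adjusted p = 0.504) against COM-4 to COM-6.

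Irak3 (chromosome 10, 120141648 to 120202130, minus strand), the gene of the inhibitory IRAK-M, rose in COM and was lower in COM+Met than in COM. NC samples held 45.1, 47.1, 43.9, 33.3, 19.4 and 17.7 FPKM, COM samples 82.5, 88.7, 88.1, 59.4, 58.7 and 109, and COM+Met samples 54.3, 44.9, 45.5, 47.7, 47.2 and 42.4. Every COM sample lay above every sample of both other groups, and the COM+Met samples lay around the highest NC samples. The rise in COM was 1.28 (SE 0.26, limma adjusted p = 0.00141, 95% interval 0.71 to 1.85), and without NC-5 and NC-6 it was 0.90 (adjusted p = 0.00340), which is below 2-fold. From COM to COM+Met it fell by 0.74 (SE 0.15, limma adjusted p = 0.00577, 95% interval -1.06 to -0.43), with a two-sided exact permutation p of 0.00216. The fall held against COM-1 to COM-3 alone (-0.87, adjusted p = 7.15e-07) and against COM-4 to COM-6 alone (-0.62, adjusted p = 0.0372). COM+Met stood 0.53 above NC (SE 0.23, adjusted p = 0.0494), which was 0.16 (adjusted p = 0.140) without NC-5 and NC-6 and had a two-sided exact permutation p of 0.0541. Irak3 overlaps Tmbim4 on the opposite strand, whose mean level was 45.0 FPKM in NC, 87.0 in COM and 117 in COM+Met and which thus did not fall between COM and COM+Met. The window at the annotated start of Irak3, chr10:120202081-120202380 on the minus strand (GRCm38.p6), is shown because Irak3 alone of the members passed as lower in the main fit of COM+Met against COM. It had a GC content of 46.7% and, with no motif of the 5 found, carries no capitals.
Irak3: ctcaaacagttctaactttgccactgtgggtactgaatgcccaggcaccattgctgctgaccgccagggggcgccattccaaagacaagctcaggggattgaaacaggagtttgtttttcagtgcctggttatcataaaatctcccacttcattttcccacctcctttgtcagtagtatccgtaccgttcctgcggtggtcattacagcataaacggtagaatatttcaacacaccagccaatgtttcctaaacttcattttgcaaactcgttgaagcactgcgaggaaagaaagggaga

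**Figure D2:**
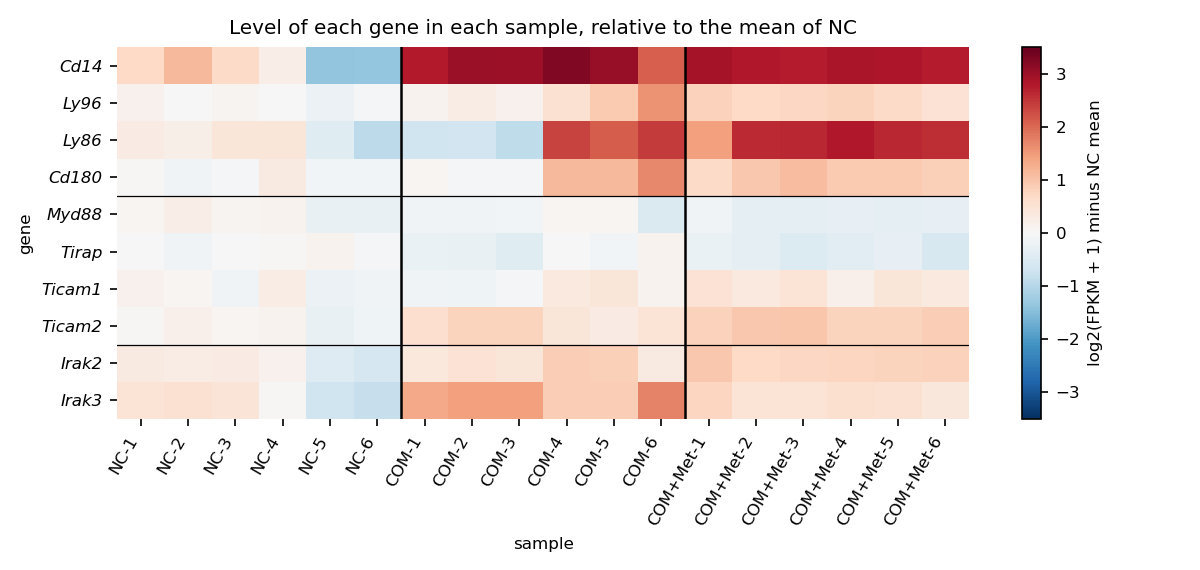
Level of each member in every sample, as log2(FPKM + 1) minus the mean of that gene in NC, with genes in rows, samples in columns grouped as NC, COM and COM+Met, and red above and blue below the NC mean. Ly86 and Cd180 change between COM-3 and COM-4, Cd14 and Irak3 are lowest in NC-5 and NC-6, and Ly86 in COM+Met-1 (7.94 FPKM) is paler than in the other 5 COM+Met samples.

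In COM+Met against COM, no member was higher, beside 5.77% of 10364 genes tested, and 1 of 10, Irak3, was lower, beside 7.58%. No member was called at 2-fold, beside 2.22% of all genes. The two-sided exact permutation p of a member, not adjusted, was below 0.05 for Irak3, Ticam2, Tirap and Ticam1. That test was run on single members only, so no share of all genes stands beside this count. The groups did not overlap for Ticam2 and Irak3, beside 11.2% of all genes. The median change of the members was 0.17, against 0.0033 for all genes, with 6 of 10 above that of all genes. The count of members that passed was 7 against COM-1 to COM-3 and 3 against COM-4 to COM-6. It thus depended on which COM libraries were used. Among all genes, 771 and 227 were called at 2-fold in these fits, against 230 in the main fit. The share of all genes that passed was not taken in these fits.

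Compared with NC, 8 of 10 members were higher in COM+Met, beside 19.3% of 10786 genes tested, and Myd88 and Tirap were lower, beside 55.9%. Cd14 and Ly86 were called at 2-fold, beside 19.3% of all genes. The groups did not overlap for 7 members, namely Cd14, Ly96, Ly86, Cd180, Tirap, Ticam2 and Irak2, beside 57.6% of all genes. The median change was 0.74, against -0.26 for all genes and 0.011 for all genes with size factors, under which Myd88 and Tirap did not pass. The number of members called rose to 5 with size factors, while that of all genes called went from 2078 to 1824.

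**Figure D3:**
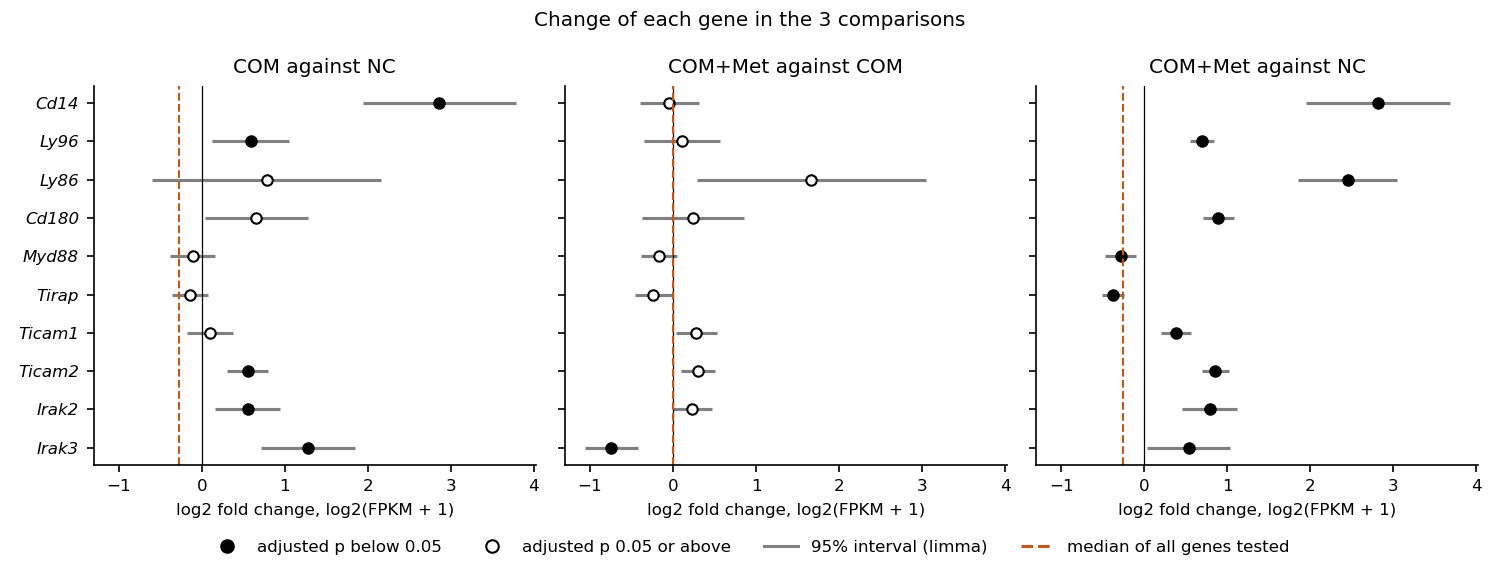
Change of each member on the log2(FPKM + 1) scale in the 3 comparisons, with 95% intervals from limma, filled points for an adjusted p below 0.05 and a dashed line at the median of all genes tested. Cd14 lies near 2.8 to 2.9 in both comparisons with NC and near 0 in COM+Met against COM, where the interval of Irak3, from -1.06 to -0.43, lies below 0.

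Pairs of members that act together were also compared as ratios of FPKM within a sample, which the scaling of a library cannot move. These 5 ratios were chosen after the levels had been seen and were compared in 3 contrasts. The adjusted p-values cover the 15 exact permutation tests but not that choice. The ratio of Irak3 to Irak2 was 1.40, 1.51, 1.40, 1.15, 1.04 and 1.05 in NC, 2.49, 2.39, 2.51, 1.25, 1.25 and 3.40 in COM, and 1.07, 1.06, 1.05, 1.09, 1.05 and 0.930 in COM+Met. Irak3 thus exceeded Irak2 in all NC and all COM samples. The ratio lay above all NC samples in COM-1 to COM-3 and COM-6, and within the range of NC in COM-4 and COM-5. In COM+Met the pair lay near an equal level. The difference between COM+Met and COM was -0.996 on the log2 scale (two-sided exact permutation p = 0.00216, adjusted 0.00649), with no overlap between the groups. In COM against NC it was 0.74 (exact permutation p = 0.0325, adjusted 0.0696).

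The ratio of Ly96 to Tlr4, the receptor that MD-2 serves, was 0.395 to 0.607 in NC, 0.698 to 1.38 in COM and 1.01 to 1.09 in COM+Met. All COM and COM+Met samples lay above all NC samples, with log2 differences of 0.95 and 1.12 (two-sided exact permutation p = 0.00216 for each, adjusted 0.00649). Tlr4 itself was 19.6 ± 1.99 FPKM (SD, n = 6) in NC, 15.9 ± 2.94 in COM and 15.2 ± 0.816 in COM+Met, and fell in COM by 0.30 (limma adjusted p = 0.0429) and in COM+Met against NC by 0.35 (adjusted p = 0.000318), beside medians of -0.27 and -0.26 for all genes. The ratio of Ly86 to Cd180 was 0.0175 to 0.0775 in NC and split COM into 0.0182 to 0.0246 in COM-1 to COM-3 and 0.113 to 0.157 in COM-4 to COM-6, which lay above all NC samples. In COM+Met it was 0.108 to 0.252, where it was higher than in COM (log2 difference 1.89, exact permutation p = 0.00866, adjusted 0.0216) and than in NC (2.05, exact permutation p = 0.00216, adjusted 0.00649). Ly86 was thus the lesser transcript of the pair in every sample. The ratio of Ticam2 to Ticam1 was higher in COM+Met than in NC by 0.46 (exact permutation p = 0.00216, adjusted 0.00649), with medians of 3.24 and 2.28, and that of Tirap to Myd88 had medians of 0.139, 0.133 and 0.134 in NC, COM and COM+Met with exact permutation p from 0.297 to 0.805.

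**Figure D4:**
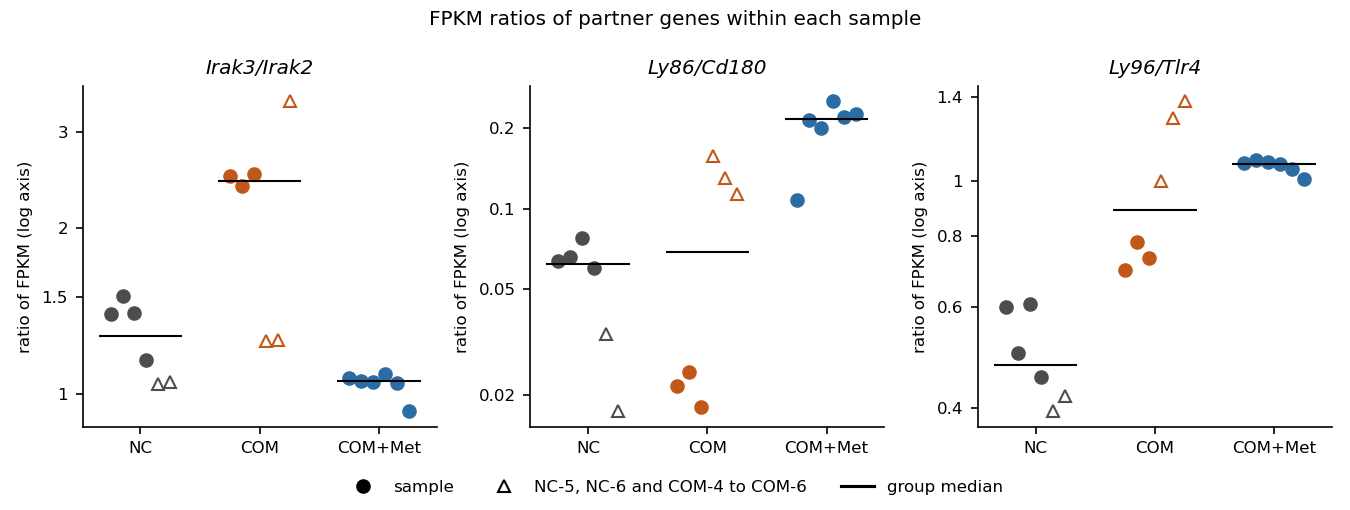
Ratios of FPKM within each sample for Irak3 to Irak2, Ly86 to Cd180 and Ly96 to Tlr4, with the 3 groups along the x axis and a logarithmic y axis. Points are samples, with open triangles for NC-5, NC-6 and COM-4 to COM-6, and lines are medians; the ratio of Irak3 to Irak2 has a median of 1.28 in NC, 2.44 in COM and 1.06 in COM+Met.

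The members work with further genes of TLR signalling, of which 57 were listed and 48 passed the filter on low values. In COM against NC, 15 of 48 were higher and 9 lower, with a median change of 0.088 (12.7% higher, 40.6% lower and a median of -0.27 for all genes), and 8 were called, a share close to the 17.7% of all genes. The genes called were Irf7, a transcription factor of the interferon response (6.05), Tlr1 (3.10), Tlr3 (1.70), Tnfaip3, which encodes the inhibitor A20 (1.51), the TLR adaptor Scimp (1.27), the ubiquitin ligase gene Peli1 (1.11) and Tlr7 (1.08), all higher, and Cd36, a scavenger receptor that also serves TLR2, which was lower (-1.24). COM samples of some of these spread widely, at 13.9 ± 12.1 FPKM (SD, n = 6) for Tlr3, 27.7 ± 14.2 for Scimp and 78.7 ± 34.3 for Tlr7. In NC these were 2.45 ± 0.442, 10.7 ± 4.83 and 34.8 ± 4.58. Among the direct partners, Irak4, the kinase that starts the IRAK cascade, fell by 0.45 in COM (SE 0.13, limma adjusted p = 0.0102), while Traf6, the ubiquitin ligase that takes the signal from the IRAKs, rose by 0.36 (adjusted p = 0.0188). Irak1 differed by -0.39 (SE 0.17, adjusted p = 0.0711). It held 25.2 to 26.9 FPKM in COM-1 to COM-3, within the 23.5 to 29.1 of NC, and 12.7 to 17.2 in COM-4 to COM-6, below all NC samples. Irak4 held 13.4 to 13.7 FPKM in COM-1 to COM-3 and 8.06 to 10.3 in COM-4 to COM-6, all below the 14.9 to 17.6 of NC, and its fall stands beside the median of -0.27 for all genes.

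Between COM+Met and COM, 1 of the 48 genes was higher and 3 were lower, with a median change of -0.086, beside 5.77% higher, 7.58% lower and a median of 0.0033 for all genes. Cd36 (-1.41) and Tlr8 (-1.02) were called, beside 2.22% of all genes. Against NC, 17 of the 48 were higher in COM+Met and 21 lower with a median of 0.028, beside 19.3% higher, 55.9% lower and a median of -0.26 for all genes, and those called were Irf7 (6.07), Tlr1 (3.75), Tlr3 (1.86), Tnfaip3 (1.46), Nfkbia, which encodes the NF-kappa B inhibitor I kappa B alpha (1.08), and Pik3ap1, which encodes the scaffold BCAP (1.00), all higher, with Tlr8 (-1.47) and Cd36 (-2.65) lower. By role, the kinases, ligases and scaffolds had 6 higher and 11 lower of 22 in that comparison, close to these shares of all genes, and the Toll-like receptors 5 higher and 3 lower of 9 tested.

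**Figure D5:**
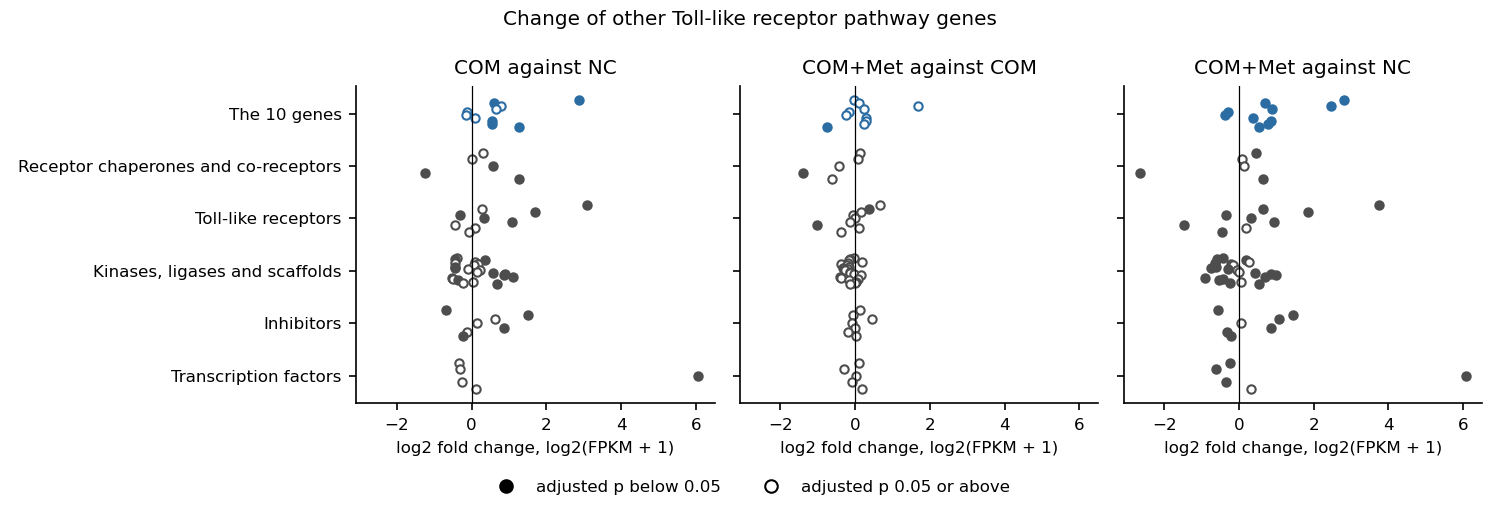
Change on the log2(FPKM + 1) scale of the 10 members and of 48 other genes of TLR signalling grouped by role, in the 3 comparisons. Each point is a gene, filled for an adjusted p below 0.05; the members lie mostly above 0 in both comparisons with NC, with medians of 0.57 and 0.74, and the 48 other genes around 0, with medians of 0.088 and 0.028.

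For each member, the genes with the most similar profile were sought among 3063 genes whose log2 values had an SD of at least 0.5 over the 18 samples, by the root mean square difference of mean-centred log2 values. The nearest were Pde4b (0.13) and Lmo4 (0.14) to Irak3, Tmem106a (0.13) to Cd180, Rnf145 (0.15) and Ptafr (0.15) to Irak2, P3h1 (0.20) to Ticam2, Zfp800 (0.22) to Ly96, and Adora2a (0.23) and Clmp (0.23) to Cd14. Irak2, Ticam2 and Ly96 had an SD below that minimum themselves (0.43, 0.39 and 0.45), so genes that varied as little as they did were not candidates. The values for Ly86 were larger, at 0.52 for Gbp8 and 0.55 for Serpina3g. For Myd88, Tirap and Ticam1, whose own profiles varied little (SD of 0.20, 0.21 and 0.25), the minimum SD of the candidates kept a near profile from being found, and none is named.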

How the data were processed

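RNA was sequenced from BMDMs in 18 libraries, 6 per group, grouped by their labels. Per gene and library, the authors deposited FPKM without pooling. Bowtie 0.12.2 is named in the submitters' processing notes, as are the builds mm9 and mm8; which quantifier and annotation were used is not given in the sources used here. FPKM is scaled to each library, so that a gene falls when abundant genes rise. Low values gave no common step for 1 read, so depth, and with it the counting error, is unknown. All sample columns were used.

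Values were taken as log2(FPKM + 1), and genes averaging 1 FPKM or more were tested with limma 3.58.1 (trend on mean expression) in R 4.3.3, in a fit of the 12 samples compared, with Benjamini-Hochberg adjustment. Such fold changes understate the change of low genes. Members were also tested by a two-sided exact permutation test over 924 arrangements, which cannot give less than 0.00216. The scripts were tested on simulated data. Alternatives comprised pseudocounts of 0.1 and 5, no filter or a mean of 5 FPKM, size factors, quantile normalisation, sample weights, 1 fit of all 18 samples, a replicate block, and libraries left out. For member results, the exact permutation test with its unadjusted p was counted as a further alternative. The members, lists and tests were chosen with earlier results of these data known. All 10 members, their partners Tlr4, Irak1, Irak4 and Traf6, genes of the pathway list called in a comparison and the nearest profiles were named, without new gene models. The overlapping genes Acaa1a, Srpr, Tmed7 and Tmbim4 and the ratios were added after values were seen. Positions were matched by Ensembl identifier to GENCODE M21 on GRCm38, a build other than the authors'. Promoter windows from RefSeq were matched by symbol for 7 of 10 members, all but Cd14, Ly96 and Ticam2. Python 3.11.15 with numpy 2.4.6, pandas 2.3.3 and matplotlib 3.10.9 was used for tables and plots.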

Additional observations from a re-analysis of the deposited data

Results flagged for a closer look

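A single sample lay far from the other 5 of its group in 4 of 30 sets of member values by Dixon's test at its 95% critical value, which flags about 1 in 20 sets by chance. Ly86 in COM+Met-1 was 7.94 FPKM, against 18.9 in the nearest sample of its group, with a gap of 0.834 of the range. Cd180 in NC-4 was 58.2 FPKM, against 47.5 in the nearest sample (0.643 of the range). Myd88 in COM-6 was 40.8 FPKM, against 53.3 (0.655), and in COM+Met-1 it was 52.7, against 47.8 (0.666). COM+Met-1 thus stood apart for 2 members, low for Ly86 and high for Myd88.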

How the results depend on the processing

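Of 720 member results under an alternative, 634 kept their direction and their side of the threshold, 32 lost and 40 gained a p below 0.05, and 14 turned direction. That p was the adjusted p of limma, except for the exact permutation test, whose p was not adjusted. By it, Ticam1, Ticam2 and Tirap gained in COM+Met against COM and Irak3 lost in COM+Met against NC. With COM-1 to COM-3 only, the changes in COM against NC were -0.0094 for Cd180, -0.74 for Ly86 and -0.11 for Ticam1. With sample weights they were -0.87 for Ly86, which passed as lower (limma adjusted p = 0.0118), and -0.12 for Ticam1 (adjusted p = 0.214). With COM-4 to COM-6 only, Tirap was 0.024 in COM against NC, and in COM+Met against COM Cd14 was 0.031, Cd180 -0.43 and Ly96 -0.30; leaving out 1 library at a time gave -0.20 to 0.031 for Cd14. With size factors, Myd88 was 0.20 and Tirap 0.15 in COM against NC and Myd88 0.027 in COM+Met against NC, and with quantile normalisation Tirap was 0.13 in COM against NC.

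Over all genes, the number called was 1926 in COM against NC, and 980 with a pseudocount of 5. It was 230 in COM+Met against COM, and 771 with COM-1 to COM-3, 719 with sample weights, 370 with a pseudocount of 0.1 and 90 with one of 5. It was 2078 in COM+Met against NC, and 1117 with a pseudocount of 5. Members called numbered 2 in COM against NC, with 4 for COM-4 to COM-6 only and 1 without NC-5 and NC-6. There were 0 in COM+Met against COM, with 1 for COM-1 to COM-3 only, for 1 fit of all 18 samples and for sample weights, and 0 to 1 with 1 library left out (1 without COM-4 or COM-6). There were 2 in COM+Met against NC, and 5 with size factors. Members past the adjusted p numbered 5 in COM against NC, with 3 without NC-5 and NC-6 and 3 to 6 with 1 library left out (3 without NC-5). There was 1 in COM+Met against COM, with 7 for COM-1 to COM-3 only, 3 for COM-4 to COM-6 only, 3 for 1 fit of all 18 samples, 9 with sample weights, 2 with size factors, 2 with quantile normalisation and 1 to 4 with 1 library left out (4 without COM-6). The share of all genes past the adjusted p was not taken for these alternatives, and the cause of these changes was not tested.

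Deviations from the group mean showed no pairing by replicate number, as none of 6 correlations of same-numbered samples was over 0.1 in any comparison. These correlations cannot settle whether such samples shared a culture or mouse, since the splits within NC and COM fall at different replicate numbers. With a replicate block, members past the adjusted p numbered 4, 1 and 10 in COM against NC, COM+Met against COM and COM+Met against NC, with 2, 0 and 2 called, and 1920, 202 and 2080 of all genes were called. Ly96 was the member lost in COM against NC (adjusted p = 0.0605).

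Ly96 in COM against NC did not pass under 12 alternatives and Irak3 in COM+Met against NC under 14, the latter with changes from 0.15 to 0.84. Ticam2 in COM+Met against COM passed under 9. Among the 14 and the 9 is the exact permutation test, judged by its unadjusted p. Since depth is unknown, the precision of low values such as Ly86 near 1 FPKM cannot be given.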
